A study of Mus musculus with 12 samples.

Results

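Genes that set the shape and number of mitochondria were compared in astrocytes of Cd38+/+, Cd38+/- and Cd38-/- mice, with Mfn1, the gene of mitofusin 1, set beside the other factors. The genes were picked by symbol, and all 10 had a row in the expression table of 20614 genes. They are Mfn1 and Mfn2 for fusion of the outer membrane, Opa1, Oma1 and Yme1l1 for fusion of the inner membrane and its control, Dnm1l, Mff and Fis1 for fission, and Ppargc1a and Ppargc1b for biogenesis. Astrocytes had been dissociated with papain from dissected striatum, thalamus and substantia nigra, which the study groups as midbrain, and captured with ACSA-2 beads after beads had taken out endothelial cells, myelin with oligodendrocytes, and CD11b+ microglia. Cd38+/+ and Cd38+/- mice gave 3 libraries each and Cd38-/- mice gave 6, all from males of 12 to 14 months (mean 13.5 months) bred from C57BL/6J. No treatment set the groups apart, and tissue of all of them was dissected in fluid with the glutamate receptor blockers CNQX and D-AP5. The mutant allele, Cd38tm1Lnd, is disrupted in every tissue, so the Cd38+/- and Cd38-/- mice lacked Cd38 function in part or in full in other cells as well as in astrocytes, and the controls were litter or peer matched. The labels number the libraries within a genotype and name no animals, so p-values measure the spread between these libraries.

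Mitochondria fuse and divide throughout life, and the balance of the opposed processes sets whether they form long networks or short separate units. MFN1 and MFN2 are GTPases of the outer membrane that tether and fuse it, OPA1 fuses the inner membrane and holds the cristae, and the proteases OMA1 and YME1L cut OPA1 into its long and short forms. Division is carried out by the dynamin-related GTPase DRP1, the product of Dnm1l, which receptors such as MFF and FIS1 bring to the outer membrane. PGC-1alpha and PGC-1beta, the products of Ppargc1a and Ppargc1b, are coactivators that switch on nuclear genes of mitochondria together with transcription factors such as NRF1, GABP, YY1 and the estrogen-related receptors. In astrocytes, mitochondria reach into fine processes near synapses and vessels, and their shape is known to shift with injury and inflammation.

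Expression was deposited as TPM, an estimate of transcript abundance per length that sums to 1000000 in each library, so levels can be set side by side between genes but the sequencing depth is unknown. A gene was tested in a comparison when its mean TPM was above 5 in at least 1 of both genotypes. Differences below are log2 fold changes of TPM + 1, which understate the change of low genes, and a gene was called differentially expressed (a DEG) where limma with Storey's adjustment over all genes tested gave q under 0.05 and the change was at least 1.2-fold. Of the 10 genes, 9 were tested in each comparison, and Ppargc1b was too low.

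Promoter windows of 9 of the 10 genes were found in the RefSeq annotation of GRCm38.p6, in 14 windows of 300 bases that run from upstream of a transcript's start into its first bases. They held between 48.7% and 70.3% G and C and from 5 to 33 CpG pairs, while the median over all 32851 promoters of the table was 52.7% and 7 pairs. The windows are shown for Mfn1 and Yme1l1, the DEGs among the 10 genes, for Mfn2 as the paralog of Mfn1 that was not a DEG, and for Opa1, which held a motif match. Letters were searched on both strands for NRF1 (GCGCATGCG), the estrogen-related receptors (TCAAGGTCA), GABP (CCGGAAGTG) and YY1 (AAGATGGCG), and a match is in capitals. The Mfn1 window is chr3:32529232-32529531 (+ strand, 55.3% G and C), the Yme1l1 window is chr2:23156255-23156554 (+ strand, 56.7%), the Opa1 window is chr16:29579084-29579383 (+ strand, 53.3%), and the Mfn2 window is 1 of 3 that overlap each other, chr4:147904649-147904948 (- strand, 64.7%).
Mfn1: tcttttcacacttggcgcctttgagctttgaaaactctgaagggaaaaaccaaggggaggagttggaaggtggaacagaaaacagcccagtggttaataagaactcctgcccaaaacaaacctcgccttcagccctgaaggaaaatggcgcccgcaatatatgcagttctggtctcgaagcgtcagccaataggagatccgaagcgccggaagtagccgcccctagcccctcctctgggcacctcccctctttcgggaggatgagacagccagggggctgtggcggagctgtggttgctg
Yme1l1: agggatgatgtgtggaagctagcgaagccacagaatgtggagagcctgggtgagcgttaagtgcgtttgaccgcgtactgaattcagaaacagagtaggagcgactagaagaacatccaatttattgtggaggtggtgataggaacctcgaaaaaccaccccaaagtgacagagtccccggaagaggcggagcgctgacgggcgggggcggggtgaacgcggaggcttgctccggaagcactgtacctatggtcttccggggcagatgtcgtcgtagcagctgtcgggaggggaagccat
Mfn2: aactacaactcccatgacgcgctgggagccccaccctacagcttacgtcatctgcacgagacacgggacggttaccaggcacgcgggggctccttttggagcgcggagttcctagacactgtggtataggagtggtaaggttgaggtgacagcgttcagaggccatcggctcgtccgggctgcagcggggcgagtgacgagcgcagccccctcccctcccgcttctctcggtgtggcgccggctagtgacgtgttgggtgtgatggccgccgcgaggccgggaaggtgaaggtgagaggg
Opa1: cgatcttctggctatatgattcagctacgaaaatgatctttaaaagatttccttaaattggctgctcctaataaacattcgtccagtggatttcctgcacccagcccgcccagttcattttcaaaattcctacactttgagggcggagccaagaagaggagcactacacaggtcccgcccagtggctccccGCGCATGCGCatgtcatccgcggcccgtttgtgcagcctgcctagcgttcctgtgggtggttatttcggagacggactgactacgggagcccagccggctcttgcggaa
Neither DEG window held any of these letters, and nor did the 3 windows of Mfn2. The Opa1 window held the NRF1 letters on both strands, overlapping by all but 1 base, with first bases at positions -59 and -58 from the transcript's start. Elsewhere the second window of Fis1 held the GABP letters at position 19, so that 2 of 14 windows had a match. Over all promoters the letters were found in 1.75% for NRF1, 0.423% for the estrogen-related receptors, 2.03% for GABP and 1.4% for YY1. A match of letters is a description and not a measured site.

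The libraries matched their genotype labels, and the Cd38+/+ libraries stood apart from the rest. Cd38, which encodes the NAD-consuming ectoenzyme, was at 149, 120.0 and 105 TPM in the Cd38+/+ libraries, at 90.8, 90.7 and 90.4 TPM in the Cd38+/- libraries and from 8.54 to 21.9 TPM (median 15.7 TPM) in the Cd38-/- libraries, with no overlap between genotypes. Against Cd38+/+, Cd38 was a DEG in Cd38-/- (-2.96, limma q = 0.00116). In Cd38+/- its difference of -0.44 (q = 0.226) did not pass. Between 13160 and 13516 genes were above 0 in the Cd38+/+ libraries against 15920 to 17906 in the others. The median pairwise correlation within a genotype was 0.828 for Cd38+/+ against 0.969 for Cd38+/- and 0.973 for Cd38-/-. Of 11845 expressed genes, 193 to 336 were listed at 0 in each Cd38+/+ library against 4 to 14 elsewhere. The change of all genes tested leaned upward against Cd38+/+, with a median of 0.18 in Cd38+/- and 0.15 in Cd38-/-. In Cd38-/- against Cd38+/+, 77.5% of the DEGs were higher, against 59.9% after scaling by median ratios, 50.5% after quantile normalization and 30.8% after a correction that takes out how values in each library vary with length and GC content of transcripts, which moved the median of all genes to 0.041, 0.015 and -0.064. The 12 astrocyte markers, all above 0, summed to 11766 to 17015 TPM in Cd38+/+, 17557 to 19642 TPM in Cd38+/- and 13260 to 17052 TPM in Cd38-/- libraries. The 3 erythroid markers summed to 4306 to 18494, 1726 to 3530 and 2106 to 8376 TPM, the 8 oligodendrocyte markers to 1300 to 7187, 3093 to 11030 and 3176 to 17814 TPM, and the 6 endothelial markers to 379 to 1755, 309 to 573 and 317 to 1103 TPM, in the same order of genotypes. The 4 mural markers summed to 102 to 150.2, 150.4 to 231 and 149.6 to 238 TPM, and the 4 ependymal and choroid plexus markers to 1558 to 2808, 1645 to 8308 and 1976 to 4327 TPM. The 11 neuronal markers summed to 44.6 to 142 TPM and the 8 microglial markers to 101 to 142 TPM over all libraries, and Th, Mog, Cx3cr1 and Tmem119 were at 0 in all 3 Cd38+/+ libraries. The part of these differences in the results below was not tested, and in bulk RNA fewer cells of a type and less RNA per cell cannot be told apart.

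Mfn1 rose in Cd38-/- astrocytes, and its values in Cd38+/- astrocytes were also above those of Cd38+/+ but did not pass the test. It was measured at 153, 123 and 135 TPM in the Cd38+/+ libraries and at 256, 203 and 221 TPM in the Cd38+/- libraries. In the Cd38-/- libraries it ran from 165 to 232 TPM with a median of 204 TPM. The lowest mutant library lay above the highest Cd38+/+ library, and the libraries of the mutant genotypes overlapped. Against Cd38+/+, Mfn1 was a DEG in Cd38-/- and rose by 0.54 (SE 0.14, limma q = 0.0308), a ratio of means of 1.46, and the two-sided exact permutation test gave p = 0.0119, the smallest that 6 libraries against 3 allow. Of all signed changes in this comparison, that of Mfn1 lay at percentile 76.8.

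The Mfn1 call in Cd38-/- astrocytes did not hold under every setting. It was kept without any 1 of the Cd38+/+ libraries (q from 0.0167 to 0.0405), without Cd38-/- replicate 3 (q = 0.0347) and without replicate 4 (q = 0.0434), and lost without replicate 1 (q = 0.0740), 2 (q = 0.0823), 5 (q = 0.0756) or 6 (q = 0.0577), with the difference at 0.46 to 0.62 throughout. With the length and GC trend of each library removed the difference was 0.17 (q = 0.212), which stood 0.23 above the median of all genes under that correction, against 0.39 above it in the values as deposited.

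In Cd38+/- against Cd38+/+, the difference in Mfn1 was 0.72 (SE 0.16, limma q = 0.176), a ratio of means of 1.66, which did not pass. No gene did in this comparison: 0% of the 11763 genes tested were DEGs by limma, while 1586 of them (13.5%) had an unadjusted p under 0.05. Mfn1 stood at rank 72 of the 11763 genes by p. The exact permutation test gave p = 0.1, the smallest that 3 libraries against 3 allow. Mfn1 passed with all 12 libraries in one fit (limma q = 0.0108), where 1464 of 11763 genes were DEGs. It also passed without the filter on low genes (q = 0.0356), where 663 of 17204 genes were DEGs. Between the mutant genotypes the difference was -0.18 in Cd38-/- against Cd38+/- (95% interval from -0.45 to 0.083, q = 0.436), an interval that holds both a fall and a small rise.

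**Figure D1:**
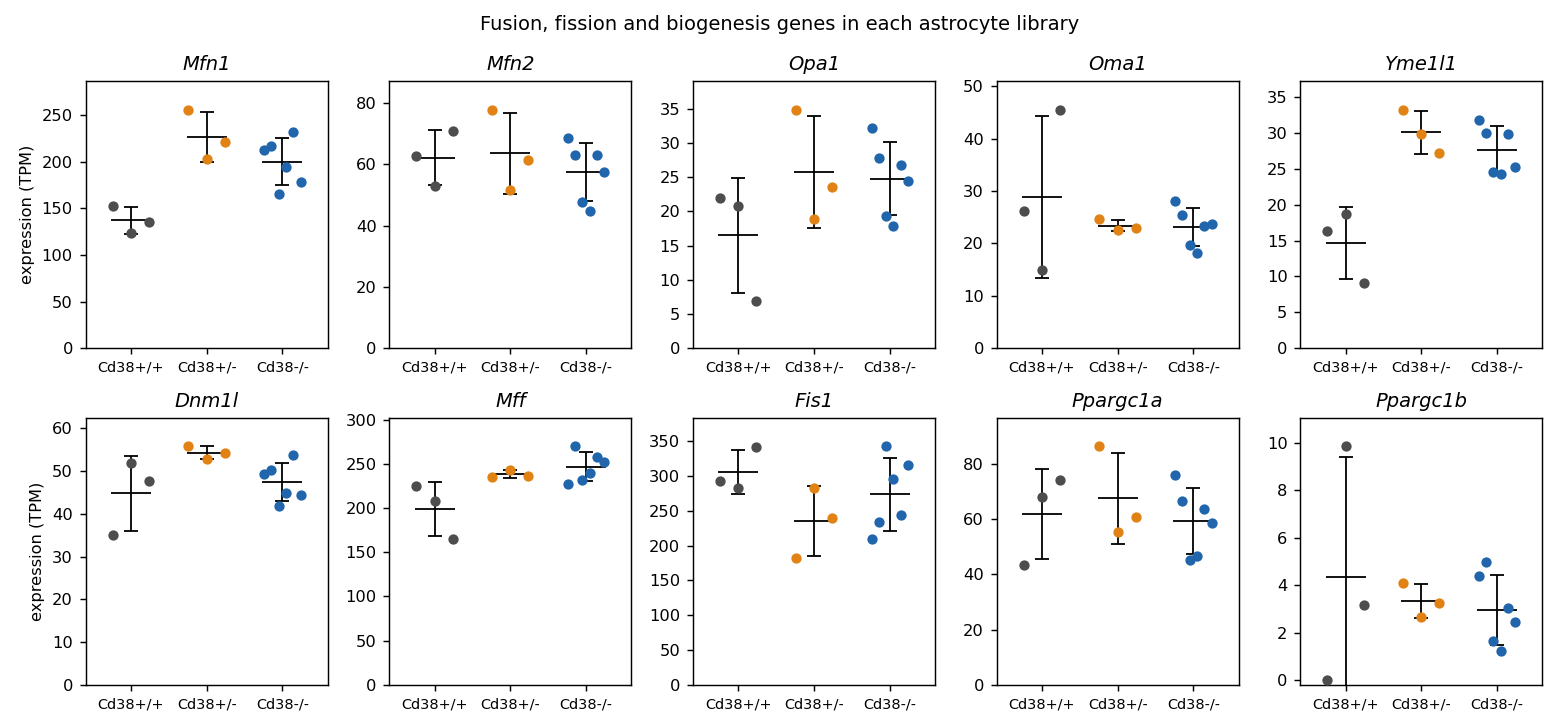
Expression in TPM (vertical axes from 0, a different scale in each panel) of the 10 genes in each library of Cd38+/+ (gray, n = 3), Cd38+/- (orange, n = 3) and Cd38-/- (blue, n = 6) astrocytes, with points for libraries and bars for the mean and SD. Mfn1, Yme1l1 and Mff show no overlap between the Cd38+/+ libraries and either mutant genotype. Mfn2, Opa1, Oma1, Fis1, Ppargc1a and Ppargc1b overlap in all pairs of genotypes, and the lower SD bar of Ppargc1b in Cd38+/+ runs below 0.

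Mfn2, which acts beside MFN1 in outer membrane fusion and also tethers mitochondria to the endoplasmic reticulum, was not a DEG in any comparison. It was measured at 62.8, 52.9 and 70.9 TPM in Cd38+/+, at 77.8, 51.5 and 61.4 TPM in Cd38+/-, and from 44.8 to 68.6 TPM with a median of 60.2 TPM in Cd38-/- libraries. All 3 genotypes overlapped. The difference was 0.022 in Cd38+/- (95% interval from -0.50 to 0.54) and -0.12 in Cd38-/- (interval from -0.50 to 0.26) against Cd38+/+, so these data do not exclude a change within those bounds. With the length and GC trend removed, Mfn2 was called lower in Cd38-/- astrocytes, with a difference of -0.44 (q = 0.0366). In that setting 1303 of 11709 genes were DEGs, 902 of them lower. Relative to the median of all genes, Mfn2 stood at -0.37 under that correction and at -0.27 in the values as deposited. Mfn2 lies at chr4:147873599-147904704 on the - strand of GRCm38 and is overlapped on the other strand by Gm13156, and the library kit does not mark strand, so their reads cannot be told apart where they overlap. Mfn1, at chr3:32529465-32579239 on the + strand, overlaps no annotated gene.

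The ratio of Mfn1 to Mfn2 within a library does not depend on a common scaling of that library. It was 2.43, 2.33 and 1.91 in the Cd38+/+ libraries, 3.29, 3.93 and 3.60 in the Cd38+/- libraries, and from 3.10 to 4.35 in the Cd38-/- libraries, and no Cd38+/+ library reached the mutant libraries. On the log2 scale of TPM + 1, the ratio was higher by 0.66 in Cd38-/- (exact permutation test, two-sided, p = 0.0119, adjusted over 3 comparisons p = 0.0357) and by 0.70 in Cd38+/- astrocytes (exact permutation p = 0.1, adjusted p = 0.15), against Cd38+/+. Both exact p-values against Cd38+/+ are the smallest that these library numbers allow. The ratio reuses the Mfn1 values tested above, and the genes were chosen with earlier results known, so it is not separate evidence. Other pairs of genes were not tested. The difference in the ratio between the mutant genotypes was -0.042 (exact permutation p = 0.714). The ratio in Cd38-/- stayed at 0.55 to 0.73 above Cd38+/+ when each library was left out in turn, and it was 0.60 above with the length and GC trend removed. Mfn1 stood further above the mean log2 level of the other 8 tested genes in the mutants, at 1.36 ± 0.16 (SD, n = 3) in Cd38+/+, 1.84 ± 0.061 (n = 3) in Cd38+/- and 1.71 ± 0.14 (n = 6) in Cd38-/- libraries, with no overlap of Cd38+/+ with the mutants. That distance reuses the same Mfn1 values, so it is not separate evidence either.

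**Figure D2:**
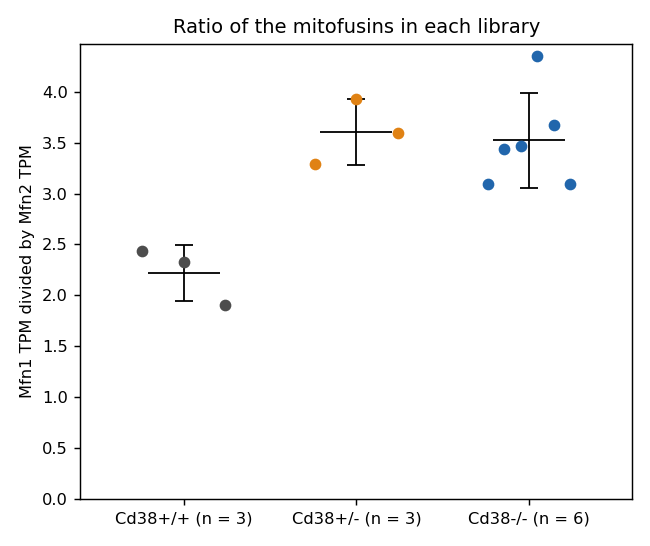
Mfn1 TPM divided by Mfn2 TPM (vertical axis from 0) in each library, by genotype, with points for libraries and bars for the mean and SD. The Cd38+/+ libraries sit at 1.91 to 2.43, below all Cd38+/- (3.29 to 3.93) and Cd38-/- (3.10 to 4.35) libraries.

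Yme1l1, the inner membrane protease that cuts OPA1 and turns over other inner membrane proteins, was the second DEG. It was measured at 16.3, 18.7 and 9.06 TPM in Cd38+/+ and at 33.3, 29.8 and 27.2 TPM in Cd38+/- libraries, and from 24.3 to 31.8 TPM with a median of 27.5 TPM in Cd38-/- libraries. No Cd38+/+ library reached either mutant genotype. In Cd38-/- astrocytes it rose by 0.92 (SE 0.24, limma q = 0.0334, ratio of means 1.88), and in Cd38+/- the difference of 1.04 (SE 0.35, q = 0.193) did not pass. Cd38+/+ replicate 3 was the lowest library, and without it the rise in Cd38-/- was 0.62 (q = 0.0244). As for Mfn1, the call was lost without Cd38-/- replicate 1 (q = 0.0816), 2 (q = 0.0871), 5 (q = 0.0848) or 6 (q = 0.0693), and with the length and GC trend removed (0.54, q = 0.0836).

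Opa1, the target of that protease, was at 22.0, 20.7 and 6.86 TPM in Cd38+/+, at 34.9, 18.9 and 23.6 TPM in Cd38+/- and from 17.9 to 32.2 TPM (median 25.7 TPM) in Cd38-/- libraries. Cd38+/+ replicate 3 stood far below all other libraries, while the other Cd38+/+ libraries lay within the range of the mutants. The differences of 0.72 in Cd38+/- (SE 0.47, limma q = 0.325) and 0.68 in Cd38-/- (SE 0.34, q = 0.139) did not pass, and without that library the latter was 0.18 (q = 0.284). Oma1, the stress-activated protease that also cuts OPA1, had its widest spread in the same genotype, at 26.2, 15.0 and 45.6 TPM in Cd38+/+ against 24.6, 22.6 and 23.0 TPM in Cd38+/- and 18.1 to 28.1 TPM (median 23.6 TPM) in Cd38-/- libraries. Its highest library was the lowest for Opa1 and Yme1l1, again Cd38+/+ replicate 3, and all genotypes overlapped. Oma1 differed by -0.16 in Cd38+/- (q = 0.550) and by -0.19 in Cd38-/- astrocytes (q = 0.410), and without that library the signs turned, to 0.23 and 0.19.

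Of the fission genes chosen by name, Dnm1l, Mff and Fis1, none was a DEG. Dnm1l, the gene of the GTPase that constricts mitochondria, was at 35.0, 51.8 and 47.6 TPM in Cd38+/+, at 55.8, 52.8 and 54.3 TPM in Cd38+/- and from 41.8 to 53.8 TPM (median 47.1 TPM) in Cd38-/- libraries. Its Cd38+/- libraries lay above all Cd38+/+ libraries, with a difference of 0.29 (SE 0.23, limma q = 0.363), and the Cd38-/- libraries overlapped the controls with a difference of 0.093 (q = 0.433). With the length and GC trend removed these were -0.092 and -0.27, and with median-ratio scaling the latter was -0.021. Between the mutant genotypes the Dnm1l difference was -0.20 (q = 0.365). The gene is overlapped by Gm49521 on the other strand of chromosome 16.

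Mff, a receptor for DRP1 on the outer membrane, was at 225, 208 and 165 TPM in Cd38+/+, at 235, 244 and 237 TPM in Cd38+/- and from 228 to 270.0 TPM (median 246 TPM) in Cd38-/- libraries. The Cd38+/+ libraries were below every library of both mutants. The difference of 0.32 in Cd38-/- (SE 0.12, limma q = 0.0832) did not pass, although the exact permutation test of this gene alone reached its smallest value of p = 0.0119, and in Cd38+/- it was 0.27 (q = 0.299). Mff passed in Cd38-/- without Cd38+/+ replicate 1 (limma q = 0.0383) and with all 12 libraries in one fit (q = 0.0445). In these settings 1787 and 1822 of 11722 genes were DEGs, against 970 in the main fit. The Mff difference was 0.19 without Cd38+/+ replicate 3 (q = 0.122), 0.20 with median-ratio scaling (q = 0.216) and 0.10 under the length and GC correction (q = 0.351). Its locus on chromosome 1 is overlapped by Gm28941 on the same and C430014B12Rik on the other strand.

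Fis1, another outer membrane protein linked to division and to the removal of mitochondria, was the tested gene whose values ran most against Mfn1. It was at 293, 283 and 342 TPM in Cd38+/+, at 182, 284 and 240.0 TPM in Cd38+/- and from 209 to 343 TPM (median 270.1 TPM) in Cd38-/- libraries, and the genotypes overlapped. The differences were -0.40 in Cd38+/- (SE 0.19, limma q = 0.247) and -0.18 in Cd38-/- (SE 0.16, q = 0.298), below 0 but not past the test. Between the mutant genotypes it was 0.22 (q = 0.487).

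Neither coactivator of biogenesis was a DEG. Ppargc1a was at 43.4, 68.2 and 74.2 TPM in Cd38+/+, at 86.4, 55.5 and 60.8 TPM in Cd38+/- and from 45.1 to 75.9 TPM (median 61.1 TPM) in Cd38-/- libraries, so that the full range of the Cd38-/- libraries lay close to that of the controls. The difference was 0.13 in Cd38+/- (95% interval from -0.48 to 0.75, limma q = 0.529) and -0.048 in Cd38-/- (interval from -0.52 to 0.42, q = 0.520). Under the length and GC correction these were -0.31 in Cd38+/- and -0.41 in Cd38-/- (limma q = 0.0726), neither past the threshold, while the median of all genes was -0.043 and -0.064. The Ppargc1a locus on chromosome 5 holds 3 other annotated genes on its own strand and 1 on the other, whose reads could be counted with it. It lies at chr5:51454250-51567726, on the same chromosome as Cd38 (chr5:43868553-43912375). Whether DNA linked to the mutant allele differs between genotypes at Ppargc1a was not tested. Ppargc1b was at 0, 9.86 and 3.17 TPM in Cd38+/+, at 4.07, 2.65 and 3.25 TPM in Cd38+/- and from 1.23 to 4.97 TPM (median 2.74 TPM) in Cd38-/- libraries. It was under the filter in every genotype, its highest and lowest values both came from Cd38+/+ libraries, and 1 of those lists it at 0.

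**Figure D3:**
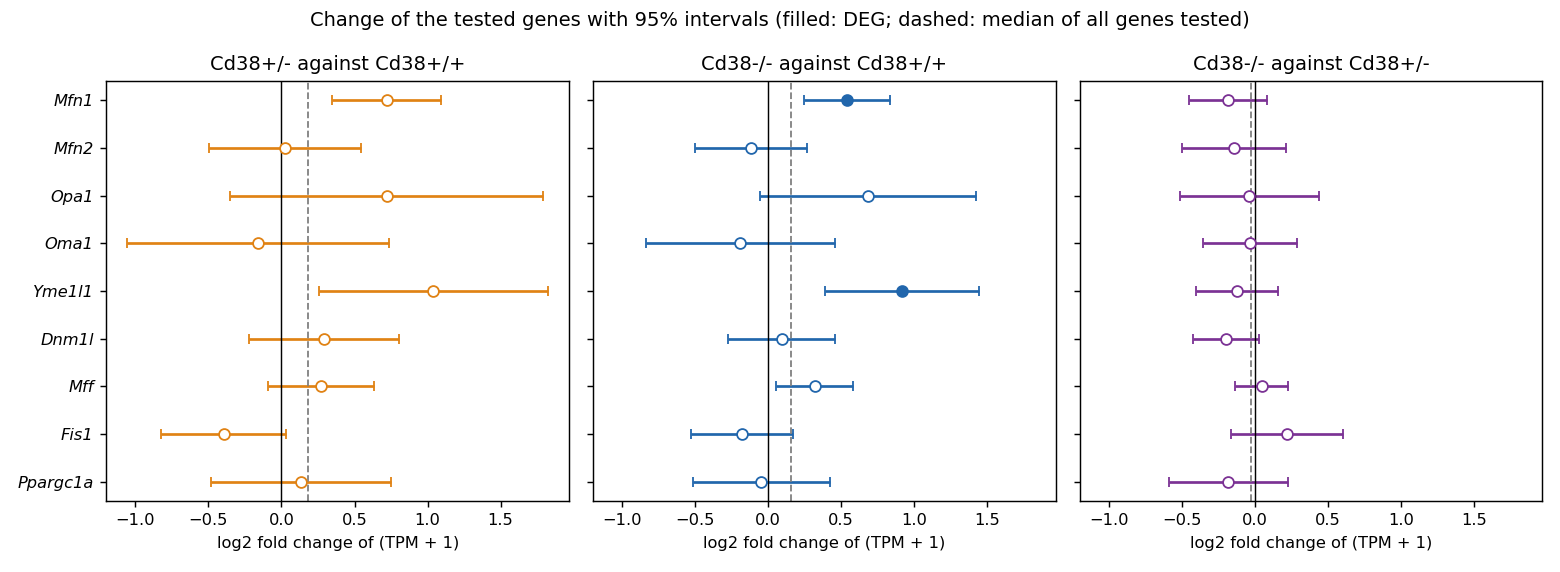
Log2 fold change of TPM + 1 (horizontal axis) of the 9 tested genes in the 3 comparisons, with 95% intervals from limma, filled points for DEGs, a solid line at 0 and a dashed line at the median of all genes tested (0.18, 0.15 and -0.024). Mfn1 (0.54) and Yme1l1 (0.92) in Cd38-/- against Cd38+/+ are filled, and all 9 intervals between the mutant genotypes include 0.

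Among the 9 tested genes, changes lay on both sides of 0 in every comparison. Of the 9, in Cd38-/- against Cd38+/+, 2 were DEGs, both higher, where 8.28% of all genes tested were DEGs and 6.42% were DEGs and higher. At an unadjusted p under 0.05 there were 3 of 9, against 23.6% of all genes, and 3 of 9 lay above Cd38+/+ without overlap, against 8.21% of all genes. Their median change was 0.093, below the 0.15 of all genes tested, with 4 genes above that value and 5 below it. In Cd38+/- against Cd38+/+, 2 of 9 had an unadjusted p under 0.05, against 13.5% of all genes, and 4 of 9 (Mfn1, Yme1l1, Dnm1l and Mff) lay above Cd38+/+ without overlap, where 15.5% of all genes did. The median was 0.27 beside 0.18 for all genes. Both comparisons use the same 3 Cd38+/+ libraries, so they are not separate evidence.

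Between the mutant genotypes none of the 9 genes was a DEG by limma, none had an unadjusted limma p under 0.05 and none was without overlap. Dnm1l had the smallest limma q of the 9 and p = 0.0476 in the two-sided exact permutation test of that gene alone. Of all 11563 genes tested 0.0346% were DEGs, 11.2% had an unadjusted limma p under 0.05 and 5.73% did not overlap in either direction. The q of the 9 genes ran from 0.365 for Dnm1l to 0.701 for Opa1, their changes from -0.20 to 0.22, and the median was -0.12 beside -0.024 for all genes.

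On the TPM scale, which is per length, the order of levels was Fis1 (306 ± 31.7, SD, n = 3), Mff (199 ± 30.9) and Mfn1 (137 ± 14.9) in Cd38+/+ astrocytes, each apart from the next, then Mfn2 (62.2 ± 9.0), Ppargc1a (61.9 ± 16.3), Dnm1l (44.8 ± 8.76), Oma1 (28.9 ± 15.5), Opa1 (16.5 ± 8.40), Yme1l1 (14.7 ± 5.01) and Ppargc1b (4.34 ± 5.03), each overlapping its neighbour. In the mutants the leading genes were no longer separate. In Cd38+/- libraries Mff (238.5 ± 4.48), Fis1 (235 ± 50.8) and Mfn1 (226.5 ± 27.0) overlapped. In Cd38-/- libraries so did Fis1 (274 ± 52.2, n = 6), Mff (247 ± 16.4) and Mfn1 (199.8 ± 25.3), while Mfn1 stayed apart from the fourth gene, Ppargc1a. Yme1l1 stood above Oma1 and Opa1 in mean level in both mutants and below them in Cd38+/+ astrocytes, with overlap between Yme1l1 and Opa1 in all 3.

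The tested genes differ in transcript length and base composition, which the choice by name did not use. The longest coding transcript of Fis1 has 948 bases and 54.4% G and C, that of Oma1 1915 bases and 48.5%, and that of Mff 2087 bases and 46%. Those of Mfn1 (4562 bases, 45.9%), Mfn2 (4341 bases, 53.1%), Yme1l1 (4707 bases, 38%), Dnm1l (3966 bases, 40.9%), Opa1 (6230 bases, 43.5%) and Ppargc1a (6464 bases, 41.7%) are longer. With the trend on both properties removed, the difference in Cd38-/- against Cd38+/+ moved down for all 9 genes, short and long, by the least for Fis1 (from -0.177 to -0.181), as the median of all genes also did, and it was above 0 for 4 genes (Mfn1, Opa1, Yme1l1 and Mff). The median of all genes under this correction was -0.064, so 4 of 9 genes stood above it and 5 below, as in the values as deposited.

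**Figure D4:**
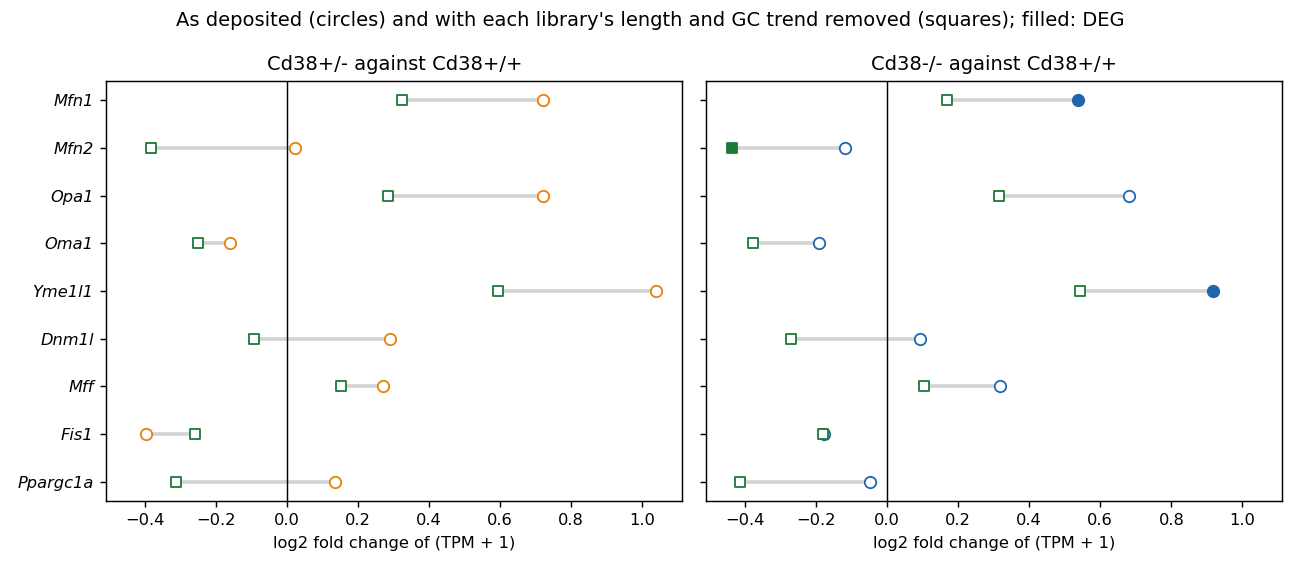
Log2 fold change of TPM + 1 (horizontal axis) of the 9 tested genes against Cd38+/+, from the values as deposited (circles) and after the length and GC correction (squares), with filled symbols for DEGs. In Cd38-/- astrocytes Mfn1 moves from 0.54 to 0.17 and Yme1l1 from 0.92 to 0.54, both losing the call, and Mfn2 moves from -0.12 to -0.44 and gains it. With the correction, 1303 of 11709 genes were DEGs in Cd38-/- against Cd38+/+, 902 of them lower.

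Over the 12 libraries, the genes closest to Mfn1 by Pearson's r of log2(TPM + 1), among 11844 expressed genes, were Snx19 (0.976), a sorting nexin, Zfp281 (0.973), a zinc finger transcription factor, Bicd2 (0.973), a dynein adaptor, Vasn (0.971), a membrane protein, and Phf20l1 (0.969), a chromatin reader. All but Vasn were lower in every Cd38+/+ library than in any mutant library, as Mfn1 was, and the 12 points differ in library quality as described. These genes were picked for following Mfn1 over the same libraries, so their separation and calls follow largely from that choice. They are not separate evidence. In Cd38-/- against Cd38+/+, 8.21% of all genes tested were higher without overlap and 8.28% were DEGs. Snx19 (0.94, limma q = 0.0305), Bicd2 (0.77, q = 0.0343) and Phf20l1 (0.70, q = 0.0434) were DEGs in Cd38-/- against Cd38+/+, and Zfp281 (0.80, q = 0.0521) and Vasn (0.44, q = 0.133) were not. The 3 calls were lost under the length and GC correction (q = 0.0553, 0.0835 and 0.145), and of 9 leave-outs 5 kept the call of Snx19, 4 that of Bicd2 and 2 that of Phf20l1. Snx19, for example, was at 25.5, 14.1 and 16.3 TPM in Cd38+/+, at 52.2, 36.3 and 43.0 TPM in Cd38+/- and from 26.7 to 43.3 TPM in Cd38-/- libraries. Among the genes of dynamics and biogenesis, r with Mfn1 was 0.822 for Yme1l1 (rank 586), 0.688 for Mff, 0.658 for Opa1, 0.491 for Dnm1l, 0.286 for Mfn2, 0.256 for Ppargc1a, -0.001 for Oma1 and -0.745 for Fis1 (rank 11520), given as a description.

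Around these genes, 9 lists of mitochondrial dynamics and biogenesis held 110 further names, of which 104 had a row and 97 were tested in the comparisons with Cd38+/+. Of these 97, in Cd38-/- against Cd38+/+, 4 were DEGs and higher (4.12%, against 6.42% of all genes) and none was a DEG and lower, 26 had an unadjusted limma p under 0.05 (26.8%, against 23.6%), and their median change was 0.20 beside 0.15. In Cd38+/- against Cd38+/+ none of 97 was a DEG, 12 had an unadjusted p under 0.05, where 13.5% of all genes did, and the median was 0.28 beside 0.18. Between the mutants none of 96 was a DEG, 6 had an unadjusted p under 0.05, where 11.2% of all genes did, and the median was -0.059 beside -0.024.

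The 4 DEGs each came from a different list. Spg7, a subunit of the m-AAA protease of the inner membrane, was at 22.0, 27.4 and 43.6 TPM in Cd38+/+, at 65.5, 48.6 and 53.9 TPM in Cd38+/- and from 48.4 to 61.6 TPM (median 55.9 TPM) in Cd38-/- libraries. Its rise of 0.86 in Cd38-/- (SE 0.20, limma q = 0.0266) held under the length and GC correction at 0.67 (q = 0.0338). Mief2, an adaptor that brings DRP1 to the outer membrane, was at 20.8, 18.4 and 32.0 TPM in Cd38+/+ against 33.6 to 44.7 TPM (median 38.8 TPM) in Cd38-/- libraries. It rose by 0.73 (limma q = 0.0382), and the call held under that correction at 0.60 (q = 0.0309). Neither gene's Cd38+/+ libraries overlapped the Cd38-/- libraries. Ppp3cb, a catalytic subunit of calcineurin, the phosphatase that activates DRP1, was at 5.58, 1.36 and 8.05 TPM in Cd38+/+ against 12.5 to 15.8 TPM (median 14.5 TPM) in Cd38-/- libraries, without overlap. It rose by 1.55 (limma q = 0.0294) from a low level, and the size of the rise was 0.98 without Cd38+/+ replicate 2 (q = 0.0175) and 0.93 with quantile normalization (q = 0.0345). The Ppp3cb mean was 4.997 TPM in Cd38+/+, under the filter of 5, and 14.2 TPM in Cd38-/-. It was therefore tested only through the genotype where it was higher, and nothing is read from its direction. Hspa9, the mitochondrial chaperone mortalin, rose by 0.62 (q = 0.0480) with overlap, since Cd38+/+ replicate 3 at 168 TPM lay within the Cd38-/- range of 155 to 209 TPM. When each of the 9 libraries was left out in turn, Spg7 and Ppp3cb kept their calls in 5 of 9 cases (lost without Cd38-/- replicate 1, 2, 5 or 6), Mief2 in 4 (lost also without replicate 4) and Hspa9 in 1 (without Cd38+/+ replicate 3), and the Hspa9 call was also lost with median-ratio scaling (q = 0.0658) and under the length and GC correction (q = 0.167).

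By list, with the 10 genes counted in, DEGs in Cd38-/- against Cd38+/+ were 1 of 6 tested for outer membrane fusion (Mfn1), 2 of 13 for inner membrane fusion and OPA1 processing (Spg7 and Yme1l1), 1 of 15 for fission (Mief2) and 1 of 12 for ligases, kinases and phosphatase subunits that act on the division machinery (Ppp3cb). They were 1 of 16 for genes that track mitochondrial mass (Hspa9). Over all genes tested, 8.28% were DEGs and 6.42% were DEGs and higher, and nothing is read from single DEGs in lists this short. No DEG was found among 9 genes of the cristae junction complex, 13 coactivators and transcription factors of biogenesis, 15 regulators of PGC-1 activity and 7 genes of mitochondrial transport. In the same order, 0, 4, 3 and 2 of them had an unadjusted limma p under 0.05, against 23.6% of all genes. Cs, which encodes citrate synthase, was at 181, 246 and 209 TPM in Cd38+/+, at 297, 286 and 320.1 TPM in Cd38+/- and from 235 to 297 TPM (median 263 TPM) in Cd38-/- libraries. Its Cd38+/- libraries lay above the controls, with a difference of 0.51 (SE 0.16, limma q = 0.184), and its Cd38-/- libraries overlapped them, with a difference of 0.32 (SE 0.12, q = 0.0827), so neither passed. Cs passed in Cd38-/- without Cd38+/+ replicate 2 (limma q = 0.0293) and with all 12 libraries in one fit (q = 0.0460). In these settings 1905 and 1822 of 11722 genes were DEGs, against 970 in the main fit. Without Cd38+/+ replicate 1 the Cs difference was 0.21 (q = 0.153), and under the length and GC correction it was 0.022 (q = 0.523).

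**Figure D5:**
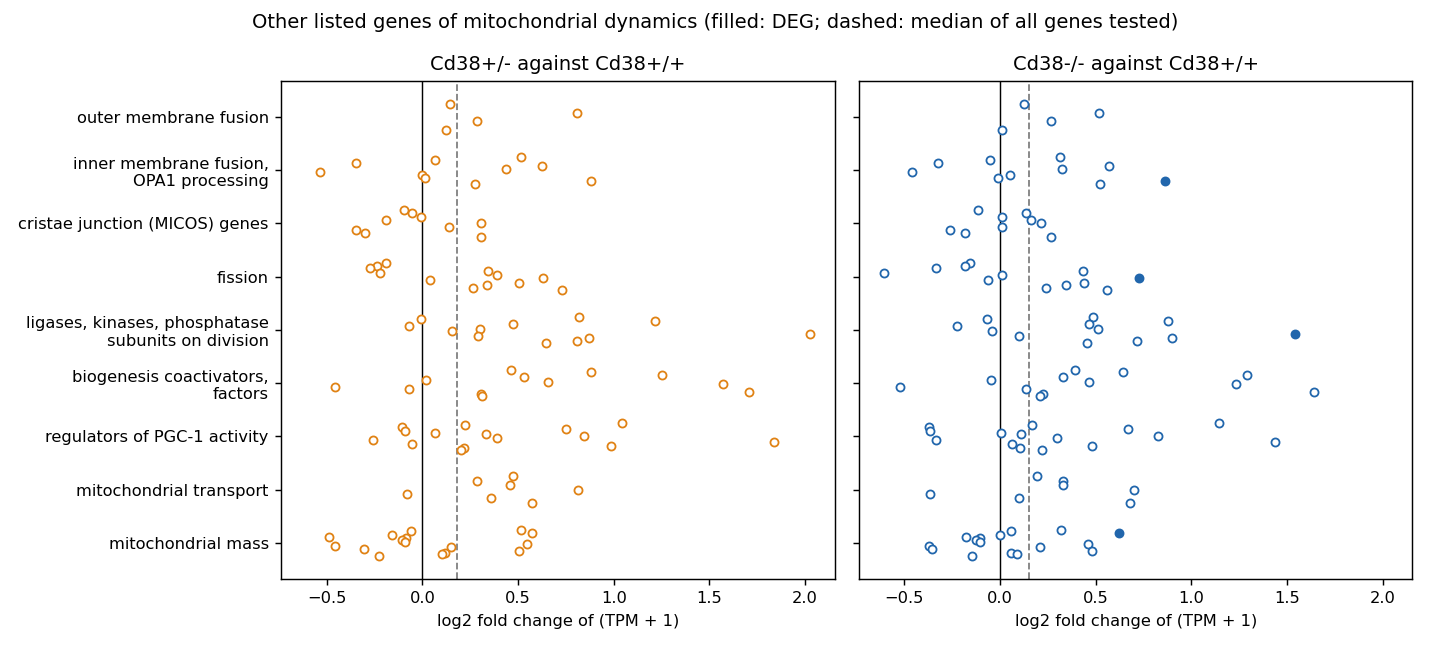
Log2 fold change of TPM + 1 (horizontal axis) of the 97 tested genes of the 9 lists, without the 10 genes themselves, in both comparisons with Cd38+/+, with 1 circle per gene, filled circles for DEGs and a dashed line at the median of all genes tested (0.18 and 0.15). The 4 filled circles in Cd38-/- are Spg7 (0.86), Mief2 (0.73), Ppp3cb (1.55) and Hspa9 (0.62), and no circle is filled in Cd38+/-.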

How the data were processed

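The authors removed bases of quality under 30 and adapters with Trim Galore 0.6.4, mapped reads to mm10 with STAR 2.7.1a and estimated expression per gene with RSEM 1.2.28; the annotation is not given in the sources used here. RNA was made into cDNA with a low-input SMART-Seq kit that keeps no strand. The deposited values are TPM, 1 column per library, without pooling, for 20614 genes. Counts were not used here, so depth cannot be read from the files, and neither counting intervals nor limits for values of 0 are given.

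Genotypes came from the sample titles. The 10 genes, the gene lists, markers and motifs were chosen with earlier results of these data known, and no count of them was tested. In each comparison only the libraries of both genotypes were fitted, on log2(TPM + 1), where the mean TPM exceeded 5 in at least 1 genotype, with limma 3.58.1 (lmFit, eBayes with a trend) in R 4.3.3. Storey q-values used a cubic smoothing spline over lambda between 0.05 and 0.95 (step 0.05). The DEG thresholds and the filter are those of the study's methods, which name no test. DESeq2 1.36.0 is listed among the study's tools with no stated role and was not run here. For single values, exact permutation tests (two-sided) were run on log2(TPM + 1) in Python 3.11.15 with numpy 2.4.6. The named genes are the 10 genes, Cd38, Cs, the DEGs of the lists (at most 8 in a comparison) and the 5 genes closest to Mfn1. The fit was tested on simulated data. Positions, lengths and GC content were read from the GENCODE vM21 annotation of GRCm38 (20503 genes matched), and promoter sequences from RefSeq on GRCm38.p6.

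The alternatives tried were other pseudocounts (0.1 and 5), another filter (none, or every library at a TPM of 1 or more), other settings of the fit (Benjamini-Hochberg adjustment, no trend, library quality weights with statmod 1.5.0, all 12 libraries together, a block for the replicate number), other scalings (median ratios, quantiles), a correction for length and GC content per library (spline with 4 degrees of freedom) with and without the block, and leaving out each library. Figures were drawn with matplotlib 3.10.9. The study's other assays were not analysed here.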

Additional observations from a re-analysis of the deposited data

How the results depend on the processing

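Depth limits these results to an unknown extent, since TPM keeps none, and the spread of the 3 Cd38+/+ libraries limits both comparisons that use them. The cause of the differences between settings below was not tested. In Cd38+/- against Cd38+/+, where 0 genes were DEGs, there were 663 without the filter, 9 without the trend, 30 with library quality weights, 1464 with all 12 libraries, 4 with the replicate block, 1 with the block and the length and GC correction together, and 0 to 1 when a library was left out; of the 10 genes 1 was called without the filter (Mfn1) and 2 with all 12 libraries (Mfn1 and Yme1l1). In Cd38-/- against Cd38+/+, where 970 were DEGs, there were 2283 without the filter, 326 with Benjamini-Hochberg adjustment, 1 with quality weights, 1822 with all 12 libraries, 2 with the replicate block, 2 with the block and the correction, and 73 (without Cd38-/- replicate 2) to 3078 (without Cd38+/+ replicate 3) when a library was left out. The count also moved by over 1.5 times without Cd38+/+ replicate 1 (1787) or 2 (1905) and Cd38-/- replicate 1 (115), 3 (574), 5 (102) or 6 (144). It was 845 without the trend and 1303 with the length and GC correction alone. Of the 10 genes, where 2 were called, there were 0 with Benjamini-Hochberg adjustment, 1 without the trend (Yme1l1), 0 with quality weights, 0 with the block, 1 with the length and GC correction (Mfn2), 0 with both, and 0 (without Cd38-/- replicate 1, 2, 5 or 6) to 3 (without Cd38+/+ replicate 1) when a library was left out. In Cd38-/- against Cd38+/-, where 4 were DEGs, there were 3120 with quality weights, 1 each with median-ratio scaling, all 12 libraries and the length and GC correction, 2 with the block, 522 with the block and the correction, and 0 (without Cd38+/- replicate 3) to 93 (without Cd38-/- replicate 4) when a library was left out.

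Whether libraries of the same replicate number form pairs is not given in the labels. Correlations of deviations between libraries of the same number ran from -0.307 to 0.454. Some libraries correlated best with their own number and others did not, which does not settle it, so the block is a check only. Under the block, Cd38-/- libraries whose number no Cd38+/+ library carries add nothing to the difference from Cd38+/+. Mfn1 in Cd38-/- against Cd38+/+ was then 0.52 (limma q = 0.327) and Yme1l1 0.97 (q = 0.345). The directions of uncalled genes turned as follows. Against Cd38+/+, Mfn2 in Cd38+/- was -0.014 with quality weights, -0.11 with median-ratio scaling and -0.38 with the correction, with and without the block (leave-outs from -0.13 to 0.16); Dnm1l in Cd38+/- was -0.092 with the correction, with and without the block, and in Cd38-/- -0.021 with median-ratio scaling, -0.27 with the correction and -0.33 with the block and the correction (leave-outs from -0.071, without Cd38+/+ replicate 1, to 0.21); Ppargc1a in Cd38+/- was -0.31 with the correction, with and without the block (leave-outs from -0.10 to 0.28), and in Cd38-/- 0.0038 with quality weights and 0.017 with the block (leave-outs from -0.28 to 0.099); Cs in Cd38-/- was -0.051 with the block and the correction; and leave-outs of Oma1 ran from -0.54 to 0.23 in Cd38+/- and from -0.58 to 0.19 in Cd38-/-, positive without Cd38+/+ replicate 3. In Cd38-/- against Cd38+/-, Opa1 was 0.048 with quality weights, 0.052 with the block, 0.028 with the correction and 0.047 with both (leave-outs from -0.23 to 0.20), Oma1 was 0.046 with the block (leave-outs from -0.090 to 0.031), Mff was -0.046 with the correction and -0.10 with both, and Spg7 was 0.053 with quality weights, 0.0056 with median-ratio scaling, 0.049 with the correction and 0.030 with both (leave-outs from -0.11 to 0.10). Leave-outs there ran from -0.28 to 0.012 for Mfn2, from -0.31 to 0.0064 for Ppargc1a, from -0.041 to 0.125 for Hspa9 and from -0.10 to 0.021 for the ratio of Mfn1 to Mfn2. Of the remaining values of single genes and ratios under these settings, 1125 kept their direction and side of the threshold, 94 lost a call and 25 gained one.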
